A study of Danio rerio with 32 samples.

Results

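The enzymes of gluconeogenesis and glucose release were followed in female adult zebrafish, in liver and in muscle, as 9 genes chosen by symbol among the 31658 rows of the count table. They were the glucose-6-phosphatases g6pca.1 and g6pca.2, the glucose-6-phosphate transporters slc37a4a and slc37a4b, the fructose-bisphosphatases fbp1a, fbp1b and fbp2, and the phosphoenolpyruvate carboxykinases pck1 and pck2. Each symbol matched 1 row. The fish were of the AB strain and were either wild type or gys2 knockout, and both genotypes gave liver and muscle, so that 4 groups of 8 libraries were compared. The labels number 8 biological replicates in each group but do not say which liver and which muscle came from 1 fish. Water temperature and light cycle were shared by all groups. The sources used here do not give feeding before sampling, the age in months, the lesion in gys2 or whether mutants and controls shared parents.

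Gluconeogenesis makes glucose from lactate, amino acids and glycerol. Phosphoenolpyruvate carboxykinase, cytosolic as pck1 and mitochondrial as pck2, turns oxaloacetate into phosphoenolpyruvate. Fructose-bisphosphatase removes a phosphate from fructose 1,6-bisphosphate, with an fbp1 form typical of mammalian liver and kidney and an fbp2 form typical of mammalian muscle. The transporter encoded by SLC37A4 in mammals carries glucose-6-phosphate into the endoplasmic reticulum, where glucose-6-phosphatase frees the glucose that hepatocytes release. In fish and mammals this last step also takes glucose-6-phosphate that comes from glycogen, whose synthesis in liver depends on the product of gys2.

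Transcripts were counted at their 3′ ends, and levels are given as CPM (the usual scaling of counts to 1 library size) after TMM scaling. TMM scales libraries by a trimmed mean of the log ratios between them. Values of liver and muscle come from scaling within that tissue unless the common scale of all 32 libraries is named. Counts were not divided by transcript length, since 3′ counting gives reads from 1 end of each transcript. Levels of a gene are compared between libraries, and ratios and shares of gene pairs between genotypes. Wild-type livers held 1514099 to 2366219 counts and knockout livers 2562717 to 15351773, so depth and genotype cannot be told apart in liver, and a value after thinning all livers to 1 depth is given for the main result. Muscle libraries held 1664493 to 7264469 counts. The targeted gene gys2 had a mean of 10.4 ± 6.30 CPM in the livers of wild-type fish, and 1.08 ± 0.755 CPM with the knockout (SD, n = 8 each). It was too low for the count filter of the liver fit, and 8 of 8 mutant livers were under the control median. Its muscle-type paralogue gys1 had a log2 change of -0.49 ± 0.16 in mutant liver (edgeR adjusted p = 0.122). The ranges of gys1 did not overlap after scaling within liver. On the common scale they did, with 43.9 to 65.4 CPM in wild-type and 35.6 to 49.6 CPM in knockout livers. A tag at the 3′ end reports the level of that transcript and not the lesion. Summed over 10 genes, hepatocyte markers reached at least 29886 CPM of the library total in every liver and at most 7999 in any muscle library. Summed over 12 genes, skeletal muscle markers reached at least 81544 CPM in every muscle library, where at most 1 of the 12 was at 0, and at most 3962 in any liver.

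**Figure D1:**
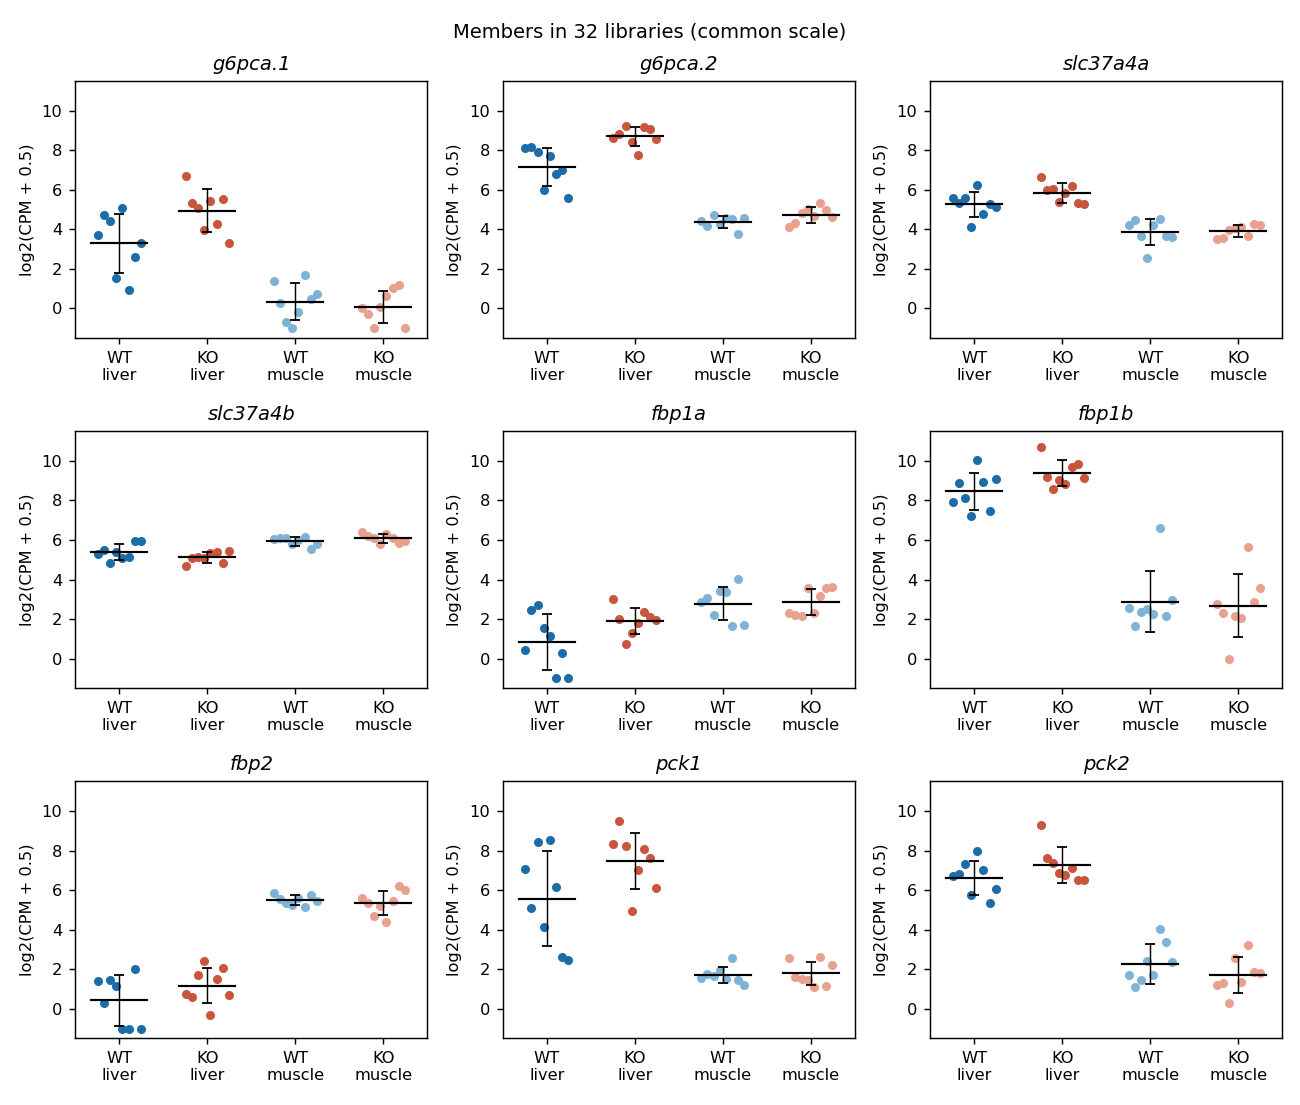
Level of each of the 9 genes as log2(CPM + 0.5) on the common scale of 32 libraries. Each point is 1 library, the long bar is the mean and the error bar is 1 SD over 8 libraries of wild type (WT) or knockout (KO). Of the 9 genes, fbp2, fbp1a and slc37a4b had higher means in muscle and the others in liver.

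Members of the pathway differed in the tissue where they were higher. Comparing liver with muscle in wild type, 5 of the 7 members that passed the count filter were higher in liver and 2 were lower (edgeR quasi-likelihood test, Benjamini-Hochberg adjusted p under 0.05), against 33.9% of all 10648 genes called (15% higher and 18.9% lower). At an unadjusted p under 0.05 there were 7 of 7, against 40.1% of all genes. DESeq2, which tested both other members too, called 9 of 9. Over the 9 other settings, DESeq2 among them, 1875 to 4837 genes were called, out of sets of differing size. In knockout fish, 6 of 9 were higher and 3 lower, against 43.4% of 11685 genes (21.2% higher and 22.2% lower), and 9 of 9 had an unadjusted p under 0.05, against 50.4%. Members low in 1 tissue passed the filter through the tissue where they were high, so these counts describe the members that passed and do not test the set.

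The carboxykinases and the liver-type bisphosphatase fbp1b were higher in liver. On the common scale fbp1b ranged from 145.5 to 1040 CPM in wild-type liver (median 375.8) and from 2.59 to 96.1 CPM in wild-type muscle (median 4.92). No liver overlapped any muscle sample, and the log2 change of liver over muscle was 4.67 ± 0.88 (SE; adjusted p = 0.000520). On the same common scale the cytosolic carboxykinase pck1 ranged from 4.99 to 375.3 CPM in liver (median 51.4). In muscle it ranged from 1.78 to 5.51 CPM (median 2.54). Of the livers, the lowest lay within the range of muscle and the other 7 above it. The top of that muscle range was wild-type muscle 6, which had the highest hepatocyte markers of its group. The next highest muscle sample had 3.35 CPM, under every liver. The log2 change of pck1 was 5.37 ± 0.95 (edgeR adjusted p = 0.000277). On the common scale the mitochondrial form pck2 had medians of 107.2 CPM in liver and 3.73 CPM in muscle, with no overlap. Its log2 change was 4.35 ± 0.53 (edgeR adjusted p = 3.67e-06).

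Among the glucose release genes, the phosphatases and 1 transporter were higher in liver. On the common scale the phosphatase g6pca.2 had 47.9 to 283.1 CPM in wild-type liver (median 170.1). In wild-type muscle it had 12.9 to 25.9 CPM (median 21.8). Every liver lay above every muscle sample (log2 change 3.03 ± 0.32, adjusted p = 3.95e-08). Its paralogue g6pca.1 was counted 2 to 59 times per wild-type liver and 0 to 17 times per wild-type muscle sample. That gene passed the filter in the knockout comparison, where liver exceeded muscle by 5.63 ± 0.57 on the log2 scale (edgeR adjusted p = 1.18e-07). Its counts there were 17 to 716 per liver and 0 to 6 per muscle sample. It passed through liver, where it was high, so the size of this change rests on low muscle counts. The transporter slc37a4a was higher in liver in wild type (log2 change 1.40 ± 0.27, adjusted p = 0.000103) and in knockout (1.94 ± 0.21, adjusted p = 1.44e-08).

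Muscle held more of the other transporter, of fbp2 and of fbp1a. The muscle bisphosphatase fbp2 had 34.8 to 57.1 CPM in wild-type muscle and 0 to 3.52 CPM in wild-type liver on the common scale, where 3 of 8 livers had no count. Liver was lower than muscle by a log2 change of -4.91 ± 0.36 in wild type (adjusted p = 5.17e-12) and -4.37 ± 0.36 in knockout (adjusted p = 3.47e-10). The transporter slc37a4b was lower in liver by -0.50 ± 0.18 in wild type (adjusted p = 0.0316) and -1.03 ± 0.17 in knockout (adjusted p = 1.18e-05). In wild type that call was lost without any 1 of 8 of the 16 libraries, with DESeq2 size factors (adjusted p = 0.0555) and in 3 other settings. The transporter paralogues thus had opposite signs in both genotypes. On the common scale the second fbp1 gene, fbp1a, had 2.68 to 15.6 CPM in wild-type muscle and 0 to 6.08 CPM in wild-type liver. It was tested in knockout fish, where liver was lower by -1.09 ± 0.36 (adjusted p = 0.0152), and the call was lost without knockout muscle 4, 6 or 8 (highest adjusted p = 0.0717). With library totals the knockout changes were 1.09 for slc37a4a, -1.92 for slc37a4b and -1.86 for fbp1a, all still called. In the RefSeq gene table for GRCz12tu, fbp1a is the coding gene next to fbp2.

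**Figure D2:**
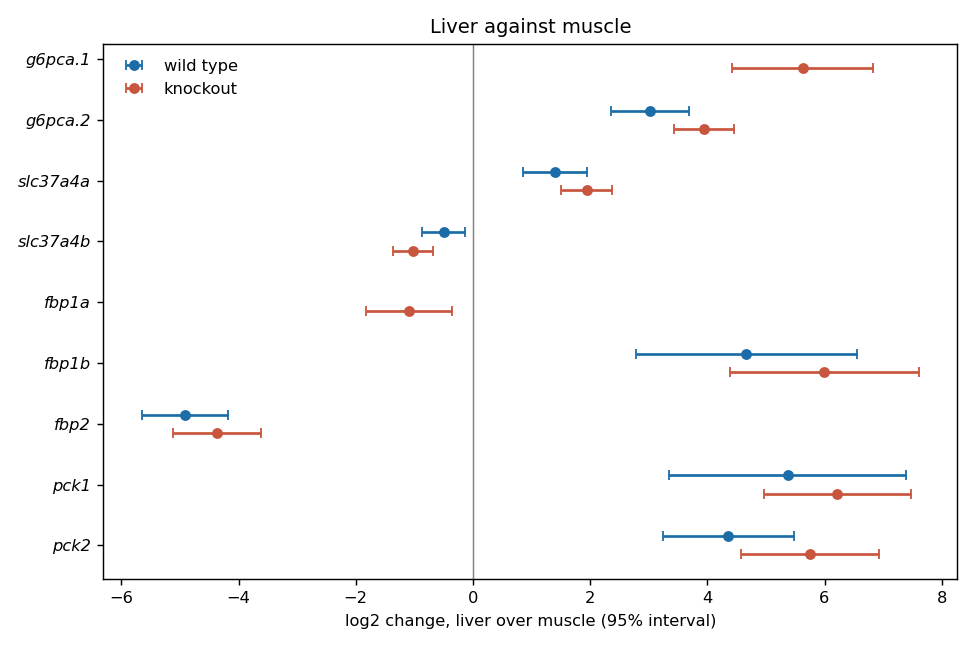
Log2 change of liver over muscle for each member in wild type and in knockout fish, with 95% intervals from the edgeR fit (SE and the t distribution of its degrees of freedom). Members with no point for a genotype did not pass the count filter there. slc37a4b, fbp1a and fbp2 lie to the left of 0, and the other members to the right.

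Levels in the tissue where a member was low were set beside markers of the other tissue. As medians of CPM of the library total, fbp1b in wild-type muscle stood at 1.58% of its level in liver. The 10 hepatocyte markers stood in muscle at 1.35% to 4.14% of their liver level (median 2.15%). The carboxykinases lay at 6.20% (pck1) and 4.05% (pck2), g6pca.1 at 6.99%, g6pca.2 at 14.4% and slc37a4a at 42.8%. In knockout fish the hepatocyte markers stood in muscle at 1.26% to 4.19% of their liver level. There fbp1b (1.53%), pck1 (2.19%), g6pca.1 (3.16%) and pck2 (3.77%) lay within that range. Above it were g6pca.2 at 10.9% and slc37a4a at 51.7%. In the other direction, fbp2 in wild-type liver stood at 2.54% of its muscle level, and the 12 skeletal muscle markers at 1.99% to 21.9% (median 2.97%). The highest was mylpfb, which was low in both tissues (0.27 CPM in liver and 1.23 CPM in muscle). The next was acta1b at 10.5%, and the rest did not exceed 4.57%. Whether RNA or reads from the other tissue make up these low levels was not tested.

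The muscle samples numbered 6 of both genotypes stood apart for fbp1b and pck2, in which each was the highest of its group. Wild-type muscle 6 had 117.8 CPM of fbp1b, where the median of the 8 wild-type muscle samples was 5.99, and 19.1 CPM of pck2 (median 4.52). Knockout muscle 6 had 60.7 CPM of fbp1b (median 6.48) and 10.7 CPM of pck2 (median 3.07). The same libraries had the highest summed hepatocyte markers, 7999 and 4030 CPM of the library total against group medians of 797.2 and 799.4. None of the 10 markers was at 0 in either. The part of this in the values of these genes was not tested, and fbp1b was also compared without those libraries. Without wild-type muscle 6 the log2 change of liver over muscle in wild type was 6.45 in place of 4.67 (edgeR adjusted p = 1.55e-11), and without knockout muscle 6 the change in knockout was 7.20 in place of 6.00 (adjusted p = 2.24e-10). Leaving out the highest muscle value of fbp1b raises its change by the choice itself, so these values are a description and not a test.

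Loss of the liver glycogen synthase was then examined for its effect on these genes in liver. Of the 9 members 7 passed the count filter and 0 were called. Over all 9438 genes 7 were called (0.0742%; 0.0636% higher and 0.0106% lower). DESeq2, limma-voom with quality weights and edgeR without a filter each called 1 member, g6pca.2. Over all genes these settings called 423 of 29097, 224 of 9438 and 99 of 29097. For DESeq2 the 29097 are genes with a p-value, before its own filter on mean counts. In the main fit 3 of 7 members (g6pca.2, g6pca.1 and slc37a4b) had an unadjusted p under 0.05, where 22.4% of all genes had one. The log2 changes were positive for 6 and negative for 1, with a median of 0.67, beside 48.2% positive and a median of -0.02 over all genes. In bulk liver, more cells of a type and more RNA per cell cannot be told apart.

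Cell type markers were read beside the members in mutant liver, where 48.2% of all genes were positive, and 0 of any list were called. All 10 hepatocyte markers were positive (median log2 change 0.50), with summed levels of 29886 to 115061 CPM of the library total in controls and 32204 to 139030 in mutants. All 12 exocrine pancreas markers were positive (median 0.86), with sums of 39.7 to 2200 and 71.5 to 3320. Of the skeletal muscle markers 5 of 11 tested were positive, with a median log2 change of -0.01 after TMM scaling. Their sums of 2745 to 3962 in controls and 1806 to 2430 in mutants did not overlap. These sums are on library totals, a scaling under which the median log2 change of all genes was -0.53. All 5 erythrocyte and 4 macrophage markers tested were positive (medians 0.75 and 0.58), as were 1 of 3 enterocyte, 1 of 1 adipocyte and 2 of 4 ovary markers. Of these lists, fabp6 (enterocyte) and lepb (adipocyte) were at 0 in every wild-type liver. The part of these markers in the members' values was not tested.

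Glucose-6-phosphatase showed the members' smallest p. Transcripts of g6pca.2 ranged from 43.2 to 248.4 CPM in wild-type liver (median 148.9) and from 178.3 to 458.2 CPM in knockout liver (median 333.5). Only knockout liver 5 lay within the control range, and 8 of 8 mutants exceeded the control median. The mean was 2.33 times as high in knockout, and the log2 change was 1.22 ± 0.32 (95% interval 0.57 to 1.87), with an edgeR adjusted p of 0.0859. Adjusted p was 0.00850 with DESeq2, 0.0371 with limma-voom and 0.0364 without a filter. Leaving out any 1 library gave values from 0.0557 to 0.194, and over the 9 other settings from 0.00850 to 0.107. With all livers thinned to the shallowest, the log2 change was 1.25 and the adjusted p 0.1005.

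The second phosphatase had a positive and the transporters opposite log2 changes. Counts of g6pca.1 ran from 2 to 59 in wild-type and from 17 to 716 in knockout livers. Its levels were 1.25 to 27.1 CPM (median 9.92) and 8.13 to 77.8 CPM (median 27.7), and 7 of 8 mutants exceeded the control median (log2 change 1.37 ± 0.55, adjusted p = 0.171). Reads of the g6pca copies may be split between them in ways the counts do not show. The transporter slc37a4a had 16.3 to 62.4 CPM in controls and 32.2 to 74.3 CPM in mutants, ranges that mostly overlap. Its log2 change was 0.39 ± 0.24 (adjusted p = 0.318), and -0.06 with library totals, a scaling that shifts the median of all genes to -0.53. The paralogue slc37a4b went the other way, with 23.6 to 59.7 CPM in controls and 18.5 to 36.8 CPM in mutants. Mutants were under the control median in 7 of 8 cases (log2 change -0.48 ± 0.21, adjusted p = 0.178). With library totals the change was -1.03 and was called (adjusted p = 0.00516), where 3138 of 9438 genes were called lower. Without a filter the change of slc37a4b was -0.30 (adjusted p = 0.546).

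Within each liver, the share of slc37a4a in the counts of both transporter genes does not depend on scaling. It was 29.2% to 69.0% in wild type (mean 47.8 ± 13.7%, n = 8) and 47.3% to 80.1% in knockout (61.8 ± 9.58%, n = 8), and 8 of 8 mutants exceeded the control median. The difference of 14.0 percentage points gave an exact two-sided permutation p of 0.0339, or 0.271 when adjusted over the 8 ratios examined. Leaving out any 1 liver gave differences from 11.4 to 17.1 points. The smallest p such a test can give is 0.000155. The share of g6pca.2 in both phosphatase genes was 92.5 ± 5.23% in wild type and 91.4 ± 6.69% in knockout (difference -1.04 points; exact permutation p = 0.725, adjusted 0.907), and its sign turned without knockout liver 1 or 5. For the carboxykinases the share of pck1 was 35.8 ± 23.3% in wild type and 53.6 ± 19.5% in knockout (exact permutation p = 0.117, adjusted 0.400). The share of fbp1b in both fbp1 genes had means of 99.3 ± 0.811% and 99.5 ± 0.123% (exact permutation p = 0.462, adjusted 0.907).

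**Figure D3:**
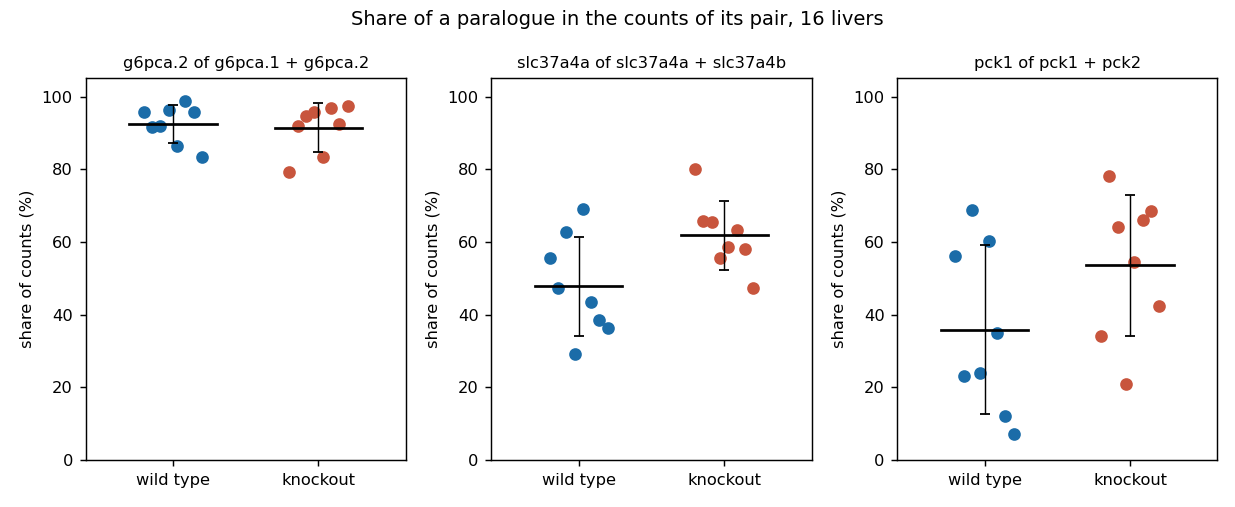
Share of 1 paralogue in the summed counts of its pair, in percent, for 8 wild-type and 8 knockout livers. Points are livers, the bar is the mean and the error bar 1 SD. The slc37a4a share had a mean of 47.8% in wild type and 61.8% in knockout, and the ranges of the groups overlapped.

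For the earlier steps the ranges of the genotypes overlapped. The bisphosphatase fbp1b had 139.5 to 854.7 CPM in wild-type liver (median 317.5) and 285.0 to 1215 CPM in knockout liver (median 467.2). In 7 of 8 mutants it exceeded the control median, with a log2 change of 0.67 ± 0.35 (adjusted p = 0.251). The change was 1.02 without wild-type liver 5 (adjusted p = 0.0851) and 0.30 with library totals. Its paralogues were near the limit of counting in liver: fbp1a had 0 to 8 counts in wild-type and 6 to 51 in knockout livers, and fbp2 had 0 to 10 and 1 to 21. Neither passed the filter there.

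Cytosolic pck1, which is known in mammals to rise with fasting, had the widest range of the 7 members tested in liver, in both genotypes. It ran from 4.502 to 308.3 CPM in wild-type liver, a 68.5-fold range around a median of 44.4. Knockout livers ran from 23.8 to 546.0 CPM, a 22.9-fold range around a median of 190.8. Wild-type livers 3 and 5 exceeded 7 of the 8 mutants, while wild-type livers 4, 7 and 8 lay below all of them. The log2 change of 0.93 ± 0.85 had a 95% interval from -0.89 to 2.75 (adjusted p = 0.511), which spans a fall and a rise. It was 0.55 without knockout liver 2, 1.40 and 1.45 without wild-type liver 3 or 5, 0.60 with library totals and 1.80 with limma-voom (adjusted p = 0.145). With the replicate block it was 1.68 (adjusted p = 0.272).

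Mitochondrial pck2 ranged from 39.0 to 204.2 CPM in control livers and from 75.5 to 468.9 CPM in mutants, with medians of 93.8 and 101.3. The highest was knockout liver 1, and the next highest mutant had 153.2 CPM. The log2 change was 0.60 ± 0.39 (adjusted p = 0.340), 0.38 with limma-voom, 0.27 with library totals and 0.12 without knockout liver 1. That liver had the highest sums of hepatocyte markers (139030 CPM of the library total) and of exocrine pancreas markers (3320) of all 16 livers, and wild-type liver 5 the second highest of hepatocyte markers (115061). Their part in the values of pck2 and fbp1b was not tested.

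In muscle no member passed the test between genotypes. Of 7 members tested 0 were called, as were 0 of 12415 genes (0%), and 0 members had an unadjusted p under 0.05, where 4.74% of all genes did. DESeq2 and limma-voom also called 0 members. The phosphatase g6pca.2 had 15.6 to 31.5 CPM in wild type (median 26.6) and 20.8 to 48.4 CPM in knockout muscle (median 32.1). It had the members' smallest p in muscle, with 6 of 8 knockout samples above the wild-type median (log2 change 0.37 ± 0.19, 95% interval -0.0064 to 0.75, edgeR adjusted p = 0.951). The muscle bisphosphatase fbp2 had 42.7 to 69.4 CPM in controls and 25.3 to 89.7 CPM in mutants (log2 change -0.05 ± 0.20, interval -0.46 to 0.36), and its sign turned with library totals or thinning. The transporter slc37a4b had means of 73.9 ± 10.6 and 81.9 ± 12.7 CPM (log2 change 0.15 ± 0.15, adjusted p = 0.971). For slc37a4a the log2 change was -0.07 ± 0.22 (0.04 with library totals). For fbp1b, -0.64 ± 0.93 in all samples became 0.11 without both samples numbered 6. For fbp1a the change was 0.05 ± 0.34, which became -0.11 without those samples, and for pck1 it was 0.13 ± 0.36.

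An interaction term over 32 libraries compared the genotype effect of the tissues. It was called for 0 of 9 members, against 0.211% of 13725 genes (0.189% higher and 0.0219% lower), and 2 members had an unadjusted p under 0.05, where 18.3% of all genes had one. These 2 were g6pca.2 (difference of log2 changes 0.98 ± 0.38, adjusted p = 0.180) and g6pca.1 (2.04 ± 0.99, adjusted p = 0.270). For slc37a4b the difference was -0.46 ± 0.23 (adjusted p = 0.280). The difference was 1.48 ± 0.73 for pck2 (adjusted p = 0.274). Neither g6pca.1 nor pck2 had passed the filter of the muscle fit. In wild-type and knockout muscle g6pca.1 had 0 to 17 and 0 to 6 counts, and pck2 had 7 to 99 and 3 to 35. They passed the filter here through liver, as fbp1a and fbp2 did through muscle, so these differences rest in part on low counts. DESeq2 and limma-voom also called 0 members. In the edgeR fit 8 of 9 members were positive (median 0.92), beside 56.0% of all genes (median 0.11). All 10 hepatocyte markers (median 1.13) and all 12 exocrine pancreas markers (median 2.25) were positive, as were 6 of 11 skeletal muscle and 1 of 5 enterocyte markers. The part of these markers in the members' differences was not tested.

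**Figure D4:**
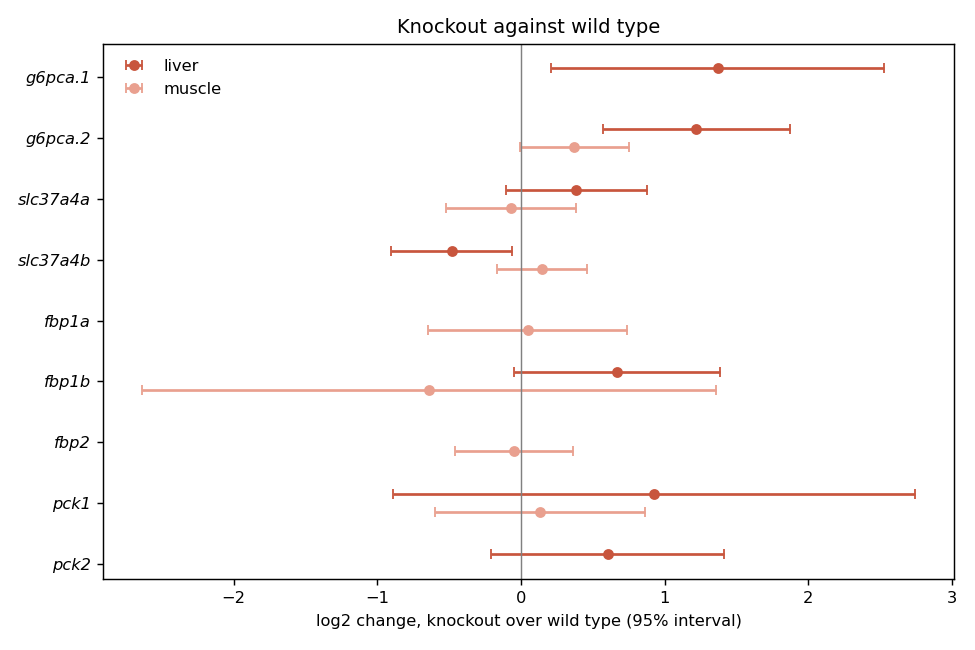
Log2 change of knockout over wild type for each member in liver and in muscle, with 95% intervals from the edgeR fit (SE and the t distribution of its degrees of freedom). Members with no point for a tissue did not pass the count filter there. In liver 6 of 7 points lie to the right of 0 and slc37a4b lies to the left.

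Other genes of the pathway were read beside the members in knockout liver. Of the genes that bring carbon in, 17 of 20 in the table were tested, 13 were positive (median 0.34), 0 were called and 3 had an unadjusted p under 0.05. For this and the liver lists that follow, 48.2% of all genes were positive, 0.0742% were called and 22.4% had an unadjusted p under 0.05. The aminotransferases gpt2, which makes pyruvate from alanine, and got1, which links aspartate to oxaloacetate, had log2 changes of -0.70 ± 0.24 (adjusted p = 0.138) and -0.89 ± 0.32 (adjusted p = 0.144). For gpt2 the means were 16.8 ± 5.996 CPM in controls and 10.3 ± 3.21 CPM in mutants, and no mutant exceeded the control median. The means of got1 were 44.9 ± 39.6 CPM in controls, with a wide spread, and 24.3 ± 5.08 CPM in mutants. Another gene of this list, gpt2l, had a higher mean in mutants (63.3 ± 27.7 CPM) than in controls (45.5 ± 27.3 CPM). The malate dehydrogenases mdh1aa and mdh2 had log2 changes of 0.57 ± 0.28 and 0.42 ± 0.21 (adjusted p = 0.221 and 0.229).

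Of the reversible steps shared with glycolysis, 15 genes were tested, 10 were positive (median 0.34), 0 were called and 4 had an unadjusted p under 0.05. The triose phosphate genes tpi1b, pgk1 and gapdh had log2 changes of 0.76 ± 0.29, 0.60 ± 0.23 and 0.53 ± 0.23 (adjusted p = 0.150, 0.153 and 0.186). Of 22 regulators tested, 17 were positive (median 0.34), 0 were called and 0 had an unadjusted p under 0.05. The transcription factor gene cebpb had a log2 change of 0.64 ± 0.31 (adjusted p = 0.229). Among relatives of the transporter, slc37a2 and slc37a1 had log2 changes of 0.62 ± 0.23 and -0.50 ± 0.18 (adjusted p = 0.143 and 0.144).

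Of the glycolytic enzymes that oppose the members 8 were tested, 0 were called, 3 were positive (median -0.16) and 1 had an unadjusted p under 0.05. The liver pyruvate kinase pklr, which removes phosphoenolpyruvate, had 237.6 ± 105.8 CPM in controls and 1074 ± 1010 CPM in mutants, and 8 of 8 mutants exceeded the control median (log2 change 2.18 ± 0.44, adjusted p = 0.0621). Ratios inside a library, on log2(CPM + 0.5), compared each opposed pair. The ratio of pck1 to pklr was -2.37 ± 2.22 in controls and -2.54 ± 1.31 in mutants (exact permutation p = 0.853, n = 8 each, adjusted 0.907). For g6pca.2 over gck, the glucokinase that phosphorylates glucose again, the ratio was 0.74 ± 2.68 and 1.40 ± 2.18 (exact permutation p = 0.591, adjusted 0.907). For fbp1b over pfkla and pfklb, genes of liver phosphofructokinase, it was 7.91 ± 2.06 and 9.13 ± 0.95 (exact permutation p = 0.150, adjusted 0.400). The denominator of that ratio was 0 to 15 counts of pfkla and 0 to 5 of pfklb per liver. In livers with few of these counts its size depends on the pseudocount of 0.5 CPM. With a pseudocount of 2 CPM the difference between genotypes was 1.03 in place of 1.23 (exact permutation test, adjusted p = 0.312). In muscle, fbp2 over pfkma and pfkmb stood at -3.07 ± 0.24 and -3.05 ± 0.43 (exact permutation p = 0.907, adjusted 0.907).

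In mutant muscle 0 genes of these lists were called: 17 genes of carbon entry were tested and 7 were positive, as were 12 of 16 of the reversible steps, 8 of 24 regulators, 3 of 10 opposing enzymes and 3 of 3 relatives, where 50.6% of all genes were positive. The kinase gene sik1, a brake on gluconeogenic transcription in mammals, had 196.9 ± 63.3 CPM in controls and 131.1 ± 36.9 CPM in mutants (log2 change -0.59 ± 0.21, adjusted p = 0.951), and no mutant exceeded the control median. Between wild-type tissues, the reversible steps were higher in liver for 4 and lower for 10 of 16 genes tested. The muscle aldolases aldoaa and aldoab were lower in liver by -4.87 ± 0.21 and -4.86 ± 0.27 on the log2 scale (adjusted p = 5.50e-17 and 1.07e-14). The genes of carbon entry were higher for 6 and lower for 9 of 18, the regulators for 5 and 11 of 23, and the opposing enzymes for 2 and 4 of 9. The opposing liver enzymes pklr and gck were higher in liver by 4.36 ± 0.56 and 3.98 ± 0.81 (adjusted p = 6.80e-06 and 0.00101). These counts stand beside the 15% higher and 18.9% lower of all genes.

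Members were then followed from fish to fish within 1 genotype, on log2(CPM + 0.5), with 12 relations examined in 6 pairs of genes. In wild-type livers pck1 and pck2 went together (Pearson r = 0.900, exact permutation p = 0.00300, adjusted 0.0204; Spearman rho = 0.857, exact permutation p = 0.0107; n = 8). Without the 2 livers farthest from the median of pck1, r was 0.902. In knockout livers the same pair had r = 0.485 (exact permutation p = 0.231, adjusted 0.555) and rho = 0.810 (exact permutation p = 0.0218), with knockout liver 1 far above the others in pck2. The difference between genotypes was not tested.

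The paralogues fbp1a and fbp1b were related in knockout livers (r = 0.898, exact permutation p = 0.00340, adjusted 0.0204; rho = 0.952, exact permutation p = 0.00114; r = 0.702 without the 2 farthest livers). In those livers fbp1a had only 6 to 51 counts, and fbp1b made up 99.3% to 99.7% of the counts of the pair. Whether reads were split between the copies was not tested. In wild-type livers, where fbp1a had 0 to 8 counts, r was -0.252 (exact permutation p = 0.540, adjusted 0.644; rho = -0.275, exact permutation p = 0.505). The other 8 relations did not pass adjustment (adjusted exact permutation p from 0.316 to 0.785). Among these, pck1 with g6pca.2 had r = 0.663 in wild-type livers (exact permutation p = 0.0805; rho = 0.619, exact permutation p = 0.115) and 0.397 in knockout livers (exact permutation p = 0.330; rho = 0.381, exact permutation p = 0.360). The transporters slc37a4a and slc37a4b had r = -0.235 in wild-type (exact permutation p = 0.584; rho = -0.452, exact permutation p = 0.267) and -0.372 in knockout livers (exact permutation p = 0.364; rho = -0.214, exact permutation p = 0.619).

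**Figure D5:**
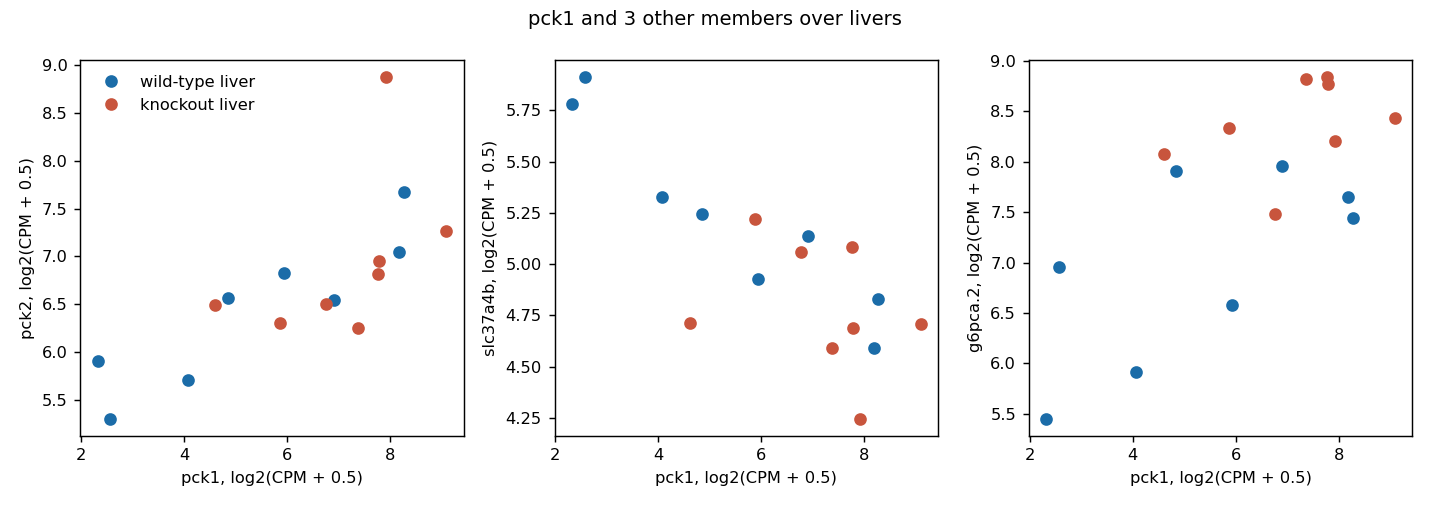
Levels of pck2, slc37a4b and g6pca.2 against pck1 as log2(CPM + 0.5), 1 point per liver, 8 wild-type and 8 knockout. Wild-type livers spread 68.5-fold in pck1, with pck2 higher and slc37a4b lower where pck1 was higher. The pair with slc37a4b was chosen after its values were seen.

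Genes with the pattern most like that of a member were sought over 16 livers after each genotype's mean was taken off, among 3020 genes with at least 20 CPM. For fbp1b the likest were mdh1aa, a cytosolic malate dehydrogenase (likeness as Pearson's r 0.95), hpda, an enzyme of tyrosine breakdown (0.94), and si:dkey-74k8.4 (0.94). For pck1 they were slc38a4, an amino acid transporter (0.86), pcbd1, which serves phenylalanine hydroxylation (0.81), and dnaja3a, a mitochondrial co-chaperone (0.80). For g6pca.2 they were zgc:136472 (0.78), mt-nd3, a mitochondrially encoded subunit of complex I (0.73), and hps1 (0.71). These values describe the best of many candidates and carry no test.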

How the data were processed

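The authors deposited raw counts per gene symbol for 32 libraries of 3′ mRNA-Seq (Lasy-Seq, per the labels' protocols). Salmon 1.10.2, BWA 0.7.17-r1188, fastp 0.23.4 and GRCz11 are listed, with no role or order, per the submitters' processing notes. The sources used here do not state strand use or rounding of the counts. Libraries were tied to groups by the library names in the labels. Genes were filtered with filterByExpr (minimum count 10, minimum total 15), scaled by TMM and tested in R 4.3.3 by edgeR 4.0.16 (robust quasi-likelihood fit), with p-values adjusted over all genes tested and called under 0.05. The filter was applied with the groups of each comparison. Each tissue was fitted alone for genotype, each genotype alone for tissue, and all 32 libraries for the interaction. Errors of log2 changes are SE from the F statistic, and intervals use the t distribution of the fit's degrees of freedom. Ratios and relations used exact permutation tests over libraries. Alternatives used DESeq2 1.42.0, limma 3.58.1, other scalings and filters, thinning, the replicate number as a block and each library left out. Scripts were tested on simulated data. P-values within 1 tissue measure the spread between fish. The tissue and interaction fits took liver and muscle libraries as independent, since the labels do not say which came from 1 fish. No reference sequences were printed. Of the 9 members, 9 matched the RefSeq gene table. Named genes were the members, gys2, gys1, partners in the ratios, up to 4 genes of smallest p per pathway list and the likest genes. Some genes that this rule names are not reported here. The members and lists were chosen with earlier results of these data known. The libraries of each group differed from each other (Pearson r of log2 levels at most 0.955 within a group), so none was counted as a repeat.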

Additional observations from a re-analysis of the deposited data

Results flagged for a closer look

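Among 36 sets of 8 libraries (9 genes in 4 groups), 3 held a library whose gap to its neighbour was large against the range of its group on log2(CPM + 0.5). Chance alone gives such a gap in about 1 of 20 sets. The first was fbp1b in wild-type muscle 6, at 117.8 CPM from 610 counts, the library with the highest hepatocyte markers of its group. The second was pck2 in knockout liver 1, at 468.9 CPM from 4314 counts, the liver that was also the highest in fbp1b, in g6pca.1 and in the summed hepatocyte markers (139030 CPM of the library total, group median 44928.5) and exocrine pancreas markers (3320). The third was slc37a4a in wild-type muscle 4, at 6.42 CPM from 11 counts, in the shallowest library of that group. No member passed the interaction test.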

How the results depend on the processing

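In liver 0 members were called; 1 was with DESeq2, limma-voom or no filter and 2 with library totals (g6pca.2 higher, 0.77, adjusted p = 0.0493, and slc37a4b lower, -1.03, adjusted p = 0.00516). Calls over all genes, 7, were 423, 224, 99 and 3155 under those, 48 with at least 50 counts in 8 libraries, 3 when thinned and 2 to 68 with 1 library left out. Signs turned with library totals for slc37a4a in liver (-0.0639) and muscle (0.0423), fbp2 in muscle (0.0157; thinned, 0.0118) and their interactions (-0.11 and -0.22). In muscle fbp1b turned with DESeq2 (0.0920) and without both samples numbered 6 (0.11), as did slc37a4a (0.0748) and fbp1a (-0.11). Muscle calls over all genes, 0, were 2 with DESeq2, 3 without a filter, 2 with the replicate block and 0 to 1 with 1 library left out. Left-out ranges in muscle were -0.17 to 0.0413 for slc37a4a, -0.0850 to 0.27 for fbp1a, -1.73 to 1.19 for fbp1b, -0.20 to 0.0665 for fbp2 and -0.0248 to 0.25 for pck1. Tissue calls over all genes went from 3607 to 1875 (wild type) and 5070 to 3051 (knockout) with at least 50 counts, and to 8989 in knockout with library totals. The interaction, 29 genes, gave 281 with DESeq2, 497 with limma-voom, 3324 with library totals (1 member, slc37a4b, -1.30), 107 without a filter, 4 thinned, 7 without both samples numbered 6 and 2 to 62 with 1 library left out; fbp1b ran from -0.38 to 2.43. Left-out ranges of ratios were -0.64 to 0.32 (pck1 over pklr), -2.32 to 0.72 points (g6pca.2 share) and -0.0553 to 0.13 (fbp2 over pfkma and pfkmb). With library totals r of g6pca.1 with g6pca.2 in knockout livers was 0.247, from -0.117. With library totals the median of all genes was -0.53 in liver, 0.13 in muscle, -0.12 and -1.02 between tissues and -0.69 in the interaction. In the main fits these medians were -0.02, 0.004, 0.01, -0.15 and 0.11. Same-numbered libraries were not taken as pairs. Their deviations correlated over 0.1 in only 3 (livers), 0 (wild-type tissues) and 2 (knockout tissues) of 8 numbers. In muscle it was 6 of 8, the median r was 0.181 against -0.00781 for other numbers, and 5 of 8 went best with their own. That is a hint of pairing in muscle, which the main muscle fit did not use. With the replicate block 0 members were called in muscle. With the replicate block g6pca.2 in liver was 1.39 (adjusted p = 0.107), and slc37a4b between wild-type tissues lost its call (adjusted p = 0.0729). The cause of these changes was not tested. In liver fbp1a and fbp2 fell below the count filter and have no test.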

Other observations

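Beyond the pairs examined above, 4 pairs of members stood out among the 21 pairs of the 7 members tested in liver, over 16 livers with each genotype's mean taken off. They were chosen because their correlations were large, so their values are given as a description with no test. They were slc37a4b with pck2 (-0.78), slc37a4b with pck1 (-0.76), g6pca.1 with slc37a4a (0.74) and slc37a4a with pck2 (0.67). These are Pearson's r. Both values in each pair come from the same library. Within the 8 wild-type livers slc37a4b was lower where pck1 was higher (r = -0.942, rho = -0.929, and r = -0.878 with library totals), and within the 8 knockout livers the value was -0.317 (0.0101 with library totals). For slc37a4b with pck2 it was -0.872 in wild-type livers and -0.704 in knockout livers, the latter -0.0518 without the 2 livers farthest from the median of pck2. For slc37a4a with pck2 it was 0.546 in wild-type and 0.841 in knockout livers. For g6pca.1 with slc37a4a it was 0.813 in wild-type and 0.614 in knockout livers, and 0.519 and 0.0268 without the 2 farthest. Differences between genotypes were not tested.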
